A study of Rattus norvegicus with 4 samples.

Results

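The 5 rat genes of the defence against oxidants and toxic compounds studied here, Sod1, Sod2, Hmox1, Gsta1 and Mt2A, were followed over 4 oligonucleotide arrays. Every probe set whose gene symbol in the probe table was exactly one of these names was taken, which gave 9 of the 1263 probe sets other than controls, for 5 of the 720 named genes. Sod1 had 3 probe sets, Hmox1 and Gsta1 had 2 each, and Sod2 and Mt2A had 1 each. The rule reads symbols alone and no signal. Total RNA came from Rattus norvegicus samples whose source label names both brain and adrenal medulla, and which of these tissues an array held is not stated. One array each was made for an undigested sample at day 1, a digested sample at day 1, an undigested sample at day 7 and a digested sample at day 7. The labels describe the days as a time course and give neither the agent of digestion nor the strain, age or number of animals. No group had a replicate, so differences are given as sizes, without a test against sample-to-sample spread.

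Superoxide dismutases turn superoxide into hydrogen peroxide, Sod1 in the cytosol with copper and zinc and Sod2 in the mitochondria with manganese. Heme oxygenase 1, the product of Hmox1, breaks heme down to biliverdin, iron and carbon monoxide and is a well known stress-inducible enzyme. Gsta1 codes for an alpha class glutathione S-transferase, which couples glutathione to electrophiles, and Mt2A for a metallothionein, a small cysteine-rich protein that binds zinc and copper and is inducible by metals, glucocorticoids and cytokines. Catecholamine-making cells form hydrogen peroxide when monoamine oxidase breaks down their transmitters, which is one reason why these enzymes are of interest in the adrenal medulla and in aminergic neurons.

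The promoters of Gsta1, Mt2A and the neighbouring metallothionein gene Mt1 are shown. Each had a probe set with a higher signal on both day 7 arrays than on both day 1 arrays. The same held for the related genes Mt3 and Gsta2, whose promoters are not shown, so this order alone did not select Mt1. The RefSeq promoter table, on build GRCr8, held windows for 4 of the 5 members, and Hmox1 was not matched. Each sequence is the 250 bases before the start used in that table, from which positions are counted, 5′ to 3′ on the gene's own strand, which is the minus strand for all 3. For Gsta1 and Sod1 that start lies inside the gene's outermost RefSeq bounds, so the last bases of their windows are part of the annotated gene. In Mt2A (chr19:10838709-10838958) and Mt1 (chr19:10832976-10833225) the capitals mark matches to the metal response element, searched as TGCACNC or TGCGCNC on both strands. In Gsta1 (chr9:31216533-31216782) they mark a match to the heat shock element, searched as GAANNTTC, and a TATA box match, TATAAA, which lies on the opposite strand.
Mt2A: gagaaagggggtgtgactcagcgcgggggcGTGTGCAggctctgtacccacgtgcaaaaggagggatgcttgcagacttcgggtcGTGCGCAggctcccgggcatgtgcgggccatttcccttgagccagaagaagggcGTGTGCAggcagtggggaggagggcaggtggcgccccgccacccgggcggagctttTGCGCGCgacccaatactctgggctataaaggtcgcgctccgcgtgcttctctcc
Mt1: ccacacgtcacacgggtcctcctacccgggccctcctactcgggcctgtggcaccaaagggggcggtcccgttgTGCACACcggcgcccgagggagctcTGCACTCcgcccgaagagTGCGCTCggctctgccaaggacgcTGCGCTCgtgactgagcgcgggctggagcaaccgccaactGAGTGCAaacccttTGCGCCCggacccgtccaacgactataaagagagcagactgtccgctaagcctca
Gsta1: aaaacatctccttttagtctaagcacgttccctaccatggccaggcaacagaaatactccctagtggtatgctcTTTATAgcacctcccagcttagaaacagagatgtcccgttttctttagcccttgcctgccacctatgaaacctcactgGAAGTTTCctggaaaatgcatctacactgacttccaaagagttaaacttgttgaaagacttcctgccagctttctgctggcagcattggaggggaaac

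Mt2A held 4 metal response element matches, with the nearest at bases -55 to -49 before the start. Mt1 held 6, of which the nearest lay at the same distance. Of 33469 rat promoter windows of this length 20.6% held at least 1 match, 0.266% held at least 4 and 0.0269% held at least 6. Both metallothionein windows also held 1 match to the antioxidant response element TGACNNNGC, at bases -237 to -229 in Mt2A and -101 to -93 in Mt1, as did the Sod2 window at bases -35 to -27 on the opposite strand, against 10.1% of all windows. Sod1 and Gsta1 had no match to TGACNNNGC in their windows. They each had 1 match to the heat shock element, at bases -179 to -172 in Sod1 and -98 to -91 in Gsta1, against 7.23% of all windows. A TATA box, held by 12.9% of all windows, was found at bases -28 to -23 in Sod1, -31 to -26 in Mt2A and -32 to -27 in Mt1. The match in Gsta1 lay far from the start, at bases -176 to -171. No NF-kB site was matched in the windows of the 4 members or of Mt1, against 3.54% of all windows, and no matches to different motifs overlapped. These are matches of letters, and no binding was measured.

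The signals below were scaled to a common median over the arrays. Values under 51.8, the 20th percentile of all scaled values, were set to that floor before log2 differences were taken. Of the 9 member probe sets, 8 were bright enough to enter the analysed set of 632 probe sets, which had a mean signal of at least 229. The exception was the S72505_f_at probe set of Gsta1. Scaling matters most for the day difference in the undigested samples, whose median over the analysed set was a log2 of 0.17 as scaled here, -0.07 without rescaling of the deposited values and 0.00 with quantile normalisation. Th, which marks catecholamine-making cells, had signals of 163625 to 256725 over the arrays. It is made in chromaffin cells and in aminergic neurons alike, so it does not tell adrenal medulla from brain. Of the 9 listed chromaffin cell markers, 5 were on the array. Their signal summed over analysed probe sets was 280097 (undigested) and 303321 (digested) at day 1, and 385271 (undigested) and 251578 (digested) at day 7. Th alone made the digested day 7 sum the lowest, since Dbh, the brighter Ddc probe set and Penk were higher there than on the digested day 1 array (log2 0.27, 0.42 and 0.76). Neuron markers, with 6 of 9 genes on the array, summed to 293593, 320071, 221732 and 197215 in the same order. The lower sum at day 7 in the undigested samples came mostly from Snap25, while Eno2 was higher there (log2 0.64) and the median over the neuron genes was 0.16. Astrocyte markers, with 4 of 6 on the array and only Glul and Slc1a3 analysed, summed to 10853, 11309.7, 4760.4 and 6298, nearly all of it Glul. Oligodendrocyte and Schwann cell markers, with 4 of 8, summed to 2761, 2957, 3890.4 and 2715. The array carried 0 of 8 listed adrenal cortex genes and 0 of 5 endothelial genes, and 1 each of the macrophage and fibroblast genes (Itgam and Vim), both too dim to be analysed. In whole samples, fewer cells of a type and less RNA per cell cannot be told apart.

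**Figure D1:**
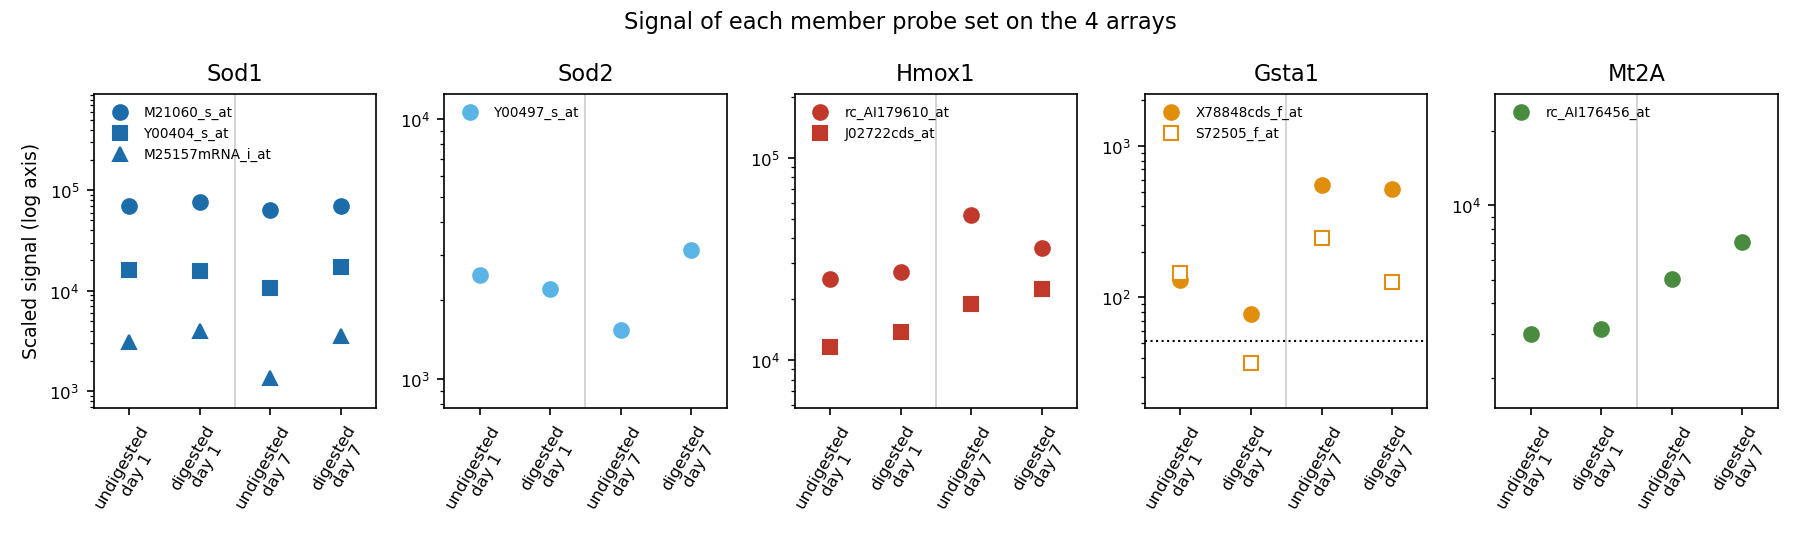
Scaled signal (log axis, a separate range for each gene) of the 9 member probe sets on the 4 arrays, 1 symbol per probe set, with open symbols for the Gsta1 probe set outside the analysed set and a dotted line at the floor of 51.8. The Gsta1, Hmox1 and Mt2A probe sets in the analysed set lie higher on both day 7 arrays than on both day 1 arrays, and every Sod1 and Sod2 probe set is lowest on the undigested day 7 array.

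Gsta1 had the largest difference between the days among the members. Its analysed probe set, X78848cds_f_at, had day 1 signals of 130.0 undigested and 78.2 digested, and day 7 signals of 556 undigested and 522 digested. Both day 7 values lay far above both day 1 values, while the 2 day 7 values were close to each other. The signal was 4.27-fold higher at day 7 in the undigested samples and 6.68-fold higher in the digested samples (log2 differences of 2.09 and 2.74). Ranked among probe sets with no value at the floor, the first of these was number 3 of 631 and the second number 1 of 632. The digested day 1 signal of 78.2 was near the floor, so the size of the larger fold is imprecise, and with a floor at the 40th percentile the log2 difference in the digested samples was 1.69. In an additive limma fit of digestion and day over all 4 arrays, the day term of Gsta1 was a log2 of 2.42 (SE 0.32) with an adjusted p of 0.0283. Its mean reached the filter of 229 only through the day 7 arrays, since both day 1 signals were below it. A difference between the days was therefore needed for it to be ranked or tested, and neither the ranks nor the call are support for one. It was the only probe set of the 632 to pass an adjusted p of 0.05 for the day (0.158%), while 91 of the 632 had an unadjusted p under 0.05. The adjusted p over the alternatives ran from 0.00112 with cyclic loess to 0.447 with no filter on dim probe sets. It also missed the threshold without rescaling (0.330) and with quantile normalisation (0.174). The error of this fit comes from how the digestion difference changed between the days and from a spread pooled over probe sets, not from replicate samples.

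The other Gsta1 probe set, S72505_f_at, was dimmer. Its undigested signals were 146 at day 1 and 247 at day 7, and its digested signals were 37.1 and 127. The day 7 value was above the day 1 value within each digestion state, by log2 differences of 0.76 and 1.29, but the values of the days overlapped, since the digested day 7 signal was below the undigested day 1 signal. The digested day 1 value was under the floor, so the second difference depends on where the floor is set. Both names end in _f_at, which marks probe sets that can detect several members of a gene family, so the signals cannot be assigned to Gsta1 alone. Gsta2, the closest relative on the array and also an alpha class transferase, was outside the analysed set with signals of 99.4, 79.6, 216 and 182 in the same array order. Its day differences were log2 1.12 and 1.19, higher at day 7 in both states. As scaled here, all 3 alpha class probe sets thus read higher at day 7 than at day 1 in each digestion state, from signals of at most 146 at day 1. The Gsta1 pair may share transcripts and need not be separate readings. Of the 632 analysed probe sets, 377 were higher at day 7 in the undigested and 336 in the digested samples. With the floor at the 40th percentile S72505_f_at differed by 0.00 in the digested samples. Gsta2 fell to 0.42 and 0.16 at its lowest over the settings.

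Between digested and undigested samples, the analysed Gsta1 probe set differed by a log2 of -0.73 at day 1 and of -0.09 at day 7. The day 1 difference, 1.66-fold lower in the digested sample, was number 16 of 632 from the lowest, but it too rested on the signal of 78.2 near the floor. S72505_f_at gave log2 differences of -1.49, with the digested value at the floor, and -0.96. Gsta2 gave -0.32 and -0.25. In the values scaled here, all 3 probe sets were lower in the digested sample at both days. With the floor at the 40th percentile the day 1 differences were 0.00 for all 3, since both values then lay at the floor, and the day 7 difference of X78848cds_f_at took either sign over the settings tried, from -0.09 to 0.09.

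Mt2A also had a higher signal at day 7. At day 1 the probe set gave 3014 undigested and 3145 digested, and at day 7 it gave 5012 undigested and 7092 digested. The day 1 values nearly coincided, both day 7 values were above them, and the digested day 7 array had the highest value. The signal was 1.66-fold higher at day 7 in the undigested samples and 2.25-fold higher in the digested samples, the latter number 17 of 632 from the highest. Digested exceeded undigested by a log2 of 0.06 at day 1, which was -0.09 at its lowest over the settings tried, and of 0.50 at day 7. In limma's additive fit the day term was a log2 of 0.95 (SE 0.31) with an adjusted p of 0.248, which did not pass; over the alternatives that adjusted p ran from 0.106 to 0.447.

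Other metallothioneins on the array read in the same direction. Mt1, the gene of a second widely expressed metallothionein, had signals of 5449.8 and 6864 at day 1 and 8282 and 10017 at day 7, undigested before digested. It was higher at day 7 by log2 differences of 0.60 in the undigested and 0.55 in the digested samples, and higher in the digested sample by 0.33 at day 1 and 0.27 at day 7. The day term of Mt1 in the limma fit was a log2 of 0.57 (SE 0.31) with an adjusted p of 0.426. Mt3, the metallothionein best known from neurons, was outside the analysed set with signals of 120.1, 101, 189 and 183 in the order used above. Under every setting tried, all 3 metallothionein probe sets were higher on both day 7 arrays than on both day 1 arrays. At the signals of Mt2A and Mt1 only rescaling or normalisation could change this order. The differences of Mt1 and Mt3 were under 2-fold. The day differences of the dim Mt3 were log2 0.65 in the undigested and 0.86 in the digested samples. At their lowest over the settings they were 0.22 and 0.18.

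**Figure D2:**
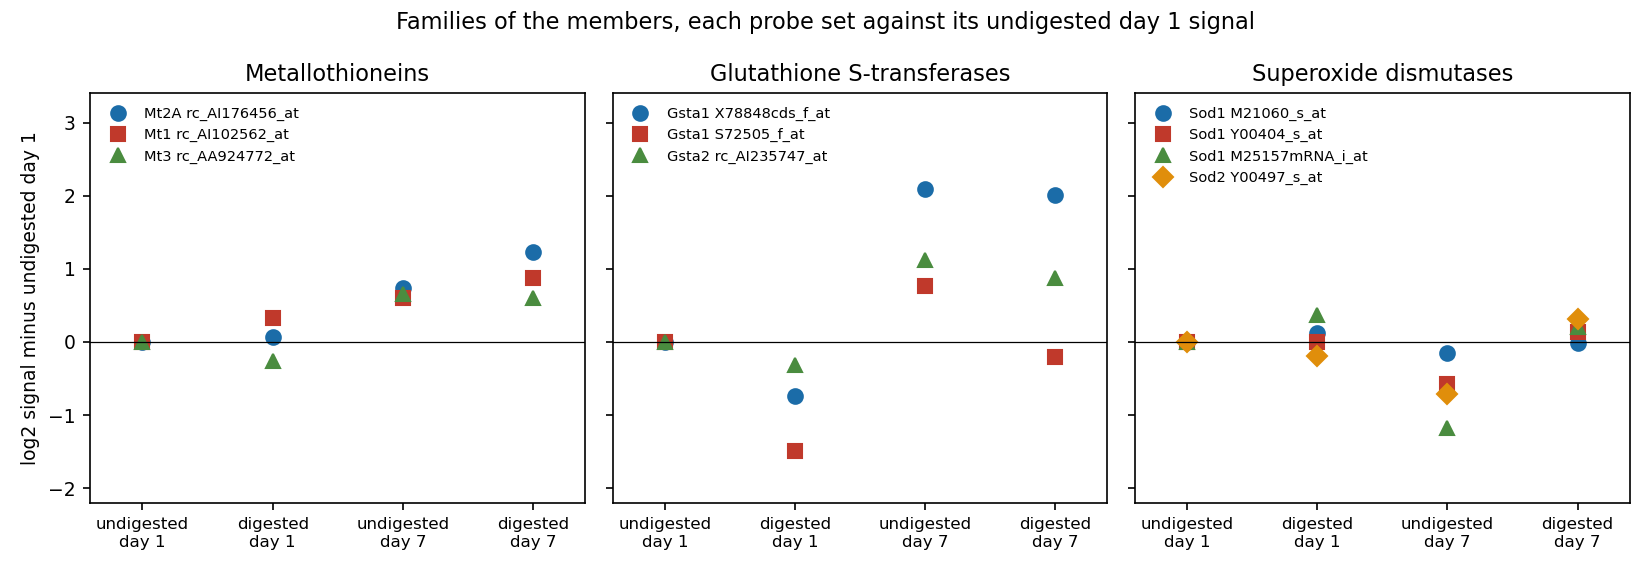
Log2 signal of each probe set of Mt2A, Mt1, Mt3, Gsta1, Gsta2, Sod1 and Sod2 on the 4 arrays, minus its own value on the undigested day 1 array (log2 units, values under the floor set to it). Metallothioneins lie above 0 on both day 7 arrays, Gsta1 and Gsta2 lie below 0 on the digested day 1 array, and the Sod1 and Sod2 probe sets lie below 0 on the undigested day 7 array, down to -1.17.

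Hmox1 was read by a pair of probe sets, neither of a kind that is shared with other genes. The brighter, rc_AI179610_at, had undigested signals of 25244 at day 1 and 51838 at day 7, and digested signals of 27082 and 35886. The other, J02722cds_at, had 11578 and 13831 at day 1 and 19016 and 22342 at day 7, undigested before digested. In both, each day 7 value was above each day 1 value, but the undigested day 7 array was the highest by the first probe set and the digested day 7 array by the second. The day difference in the undigested samples was a log2 of 1.04 by the first and 0.72 by the second, and in the digested samples 0.41 and 0.69. The difference of 1.04 passed 2-fold only as scaled to a common median, with either floor, with the offset and without the filter, and was 0.81 without rescaling, 0.70 with quantile normalisation and 0.80 with cyclic loess. The digestion difference at day 7 was -0.53 by the first probe set and 0.23 by the second, so its direction is not settled by these arrays. The gap between them was 0.76. Single probe sets had a pooled SD of 0.52 around the mean of their gene, taken over 125 genes, and a gap between a pair of probe sets spreads more than that. At day 1 the digestion differences were 0.10 and 0.26, the first of which turned to -0.12 at its lowest over the settings. In limma's additive fit the day term was 0.72 (SE 0.32, adjusted p = 0.362) and 0.70 (SE 0.31, adjusted p = 0.343).

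Both day 7 arrays exceeded both day 1 arrays in 4 of the 8 analysed member probe sets, those of Hmox1, Gsta1 and Mt2A. The same held for 200 of all 632 (31.6%). A higher value on both day 7 arrays was therefore common over all probe sets, at 23.4% to 31.8% over the settings. The same 4 member probe sets had it under each setting. At the signals of Hmox1 and Mt2A only rescaling or normalisation could change this order. At least 2-fold higher at day 7 were 2 of the 8 in the undigested samples (Gsta1 and 1 probe set of Hmox1), against 7.28% of all, and 2 of the 8 in the digested samples (Gsta1 and Mt2A), against 3.32%. Gsta1 is among the 8 only through its day 7 signals, so these counts and the medians of the 8 are descriptions and support nothing. The median log2 difference over the 8 was 0.28 in the undigested and 0.45 in the digested samples, beside 0.17 and 0.04 over all 632. The summed signal of the chromaffin markers given above was also highest on the undigested day 7 array. There rc_AI179610_at of Hmox1 was highest, and so was X78848cds_f_at of Gsta1 as scaled here. Without rescaling X78848cds_f_at was highest on the digested day 7 array (531 against 511 undigested). The other Hmox1 probe set was highest on the digested day 7 array as well. The part of the marker sum in these differences was not tested.

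**Figure D3:**
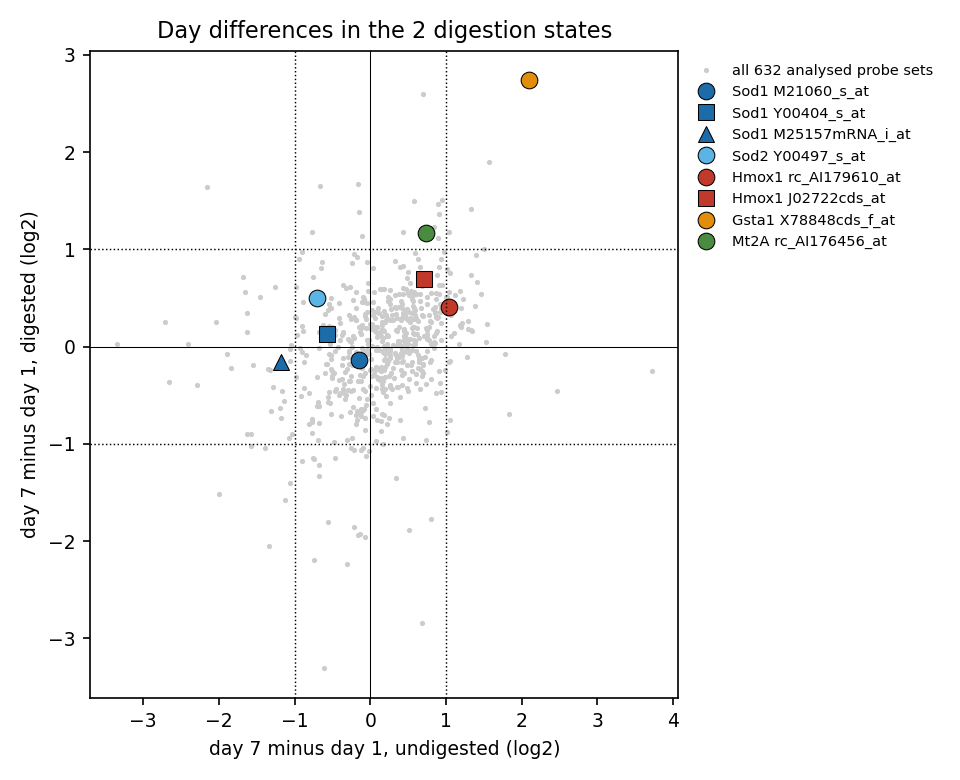
Day 7 minus day 1 difference (log2) in the undigested samples on the horizontal axis and in the digested samples on the vertical axis, for all 632 analysed probe sets (grey) and the 8 member probe sets (coloured); the axes share no array, and dotted lines mark 2-fold. Gsta1 stands at 2.09 and 2.74, Mt2A and Hmox1 lie in the same quadrant, and the Sod1 and Sod2 probe sets lie left of 0.

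The superoxide dismutases read differently from the other members. Sod2 had signals of 2515 (undigested) and 2212 (digested) at day 1, then 1542 (undigested) and 3128 (digested) at day 7. The undigested day 7 array was the lowest and the digested day 7 array the highest. Digested exceeded undigested 2.03-fold at day 7 (log2 1.02), while at day 1 the difference was a log2 of -0.19. This difference was close to 2-fold under each setting, from 0.98 with cyclic loess to 1.16 in the values as deposited. Between the days, Sod2 was 1.63-fold lower at day 7 in the undigested samples and 1.41-fold higher in the digested samples. The limma day term was a log2 of -0.10 (SE 0.37, adjusted p = 0.908) and the digestion term 0.42 (SE 0.37, adjusted p = 0.999), neither past the threshold.

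Sod1 was read by 3 probe sets, which had the same array lowest but spread widely in size. M21060_s_at, the brightest, had day 1 signals of 70222 undigested and 76746 digested, and day 7 signals of 63134 undigested and 69716 digested. These 4 values lay within 1.22-fold of each other, the smallest range of any member probe set, with both day 7 values below both day 1 values, as for 115 of all 632 (18.2%), an order that M21060_s_at lost after quantile normalisation. Y00404_s_at had 15897 and 15847 at day 1 and 10678 and 17394 at day 7, undigested before digested, a range of 1.63-fold. M25157mRNA_i_at had 3051 and 3939 at day 1 and 1351 and 3528 at day 7 in the same order, a range of 2.91-fold. Its name ends in _i_at, which marks a set with fewer probes than usual, and those of the others in _s_at, which marks probes shared by similar transcripts.

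The digestion difference of Sod1 at day 7 was a log2 of 0.14, 0.70 and 1.38 by the 3 probe sets in the order given, higher in the digested sample by each. The day difference in the undigested samples was -0.15, -0.57 and -1.17, lower at day 7 by each. The direction was thus shared and the size was not, with a gap of 1.24 between the highest and lowest probe set for the digestion difference at day 7. On the other pairs of arrays the probe sets differed less. The digestion differences at day 1 ran up to 0.37, and the day differences in the digested samples ran from -0.16 to 0.13, with that of M21060_s_at reaching 0.09 over the settings. By M25157mRNA_i_at both digested arrays lay above both undigested arrays, as for 105 of all 632 (16.6%). That order was lost with cyclic loess. Its digestion term in the limma fit was a log2 of 0.88 (SE 0.35), with an adjusted p of 0.677. No digestion term of the 632 passed an adjusted p of 0.05 in limma (0 of 632), and 42 had an unadjusted p under 0.05, this one among them.

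All 4 Sod probe sets were lowest on the undigested day 7 array under every setting tried. At their signals only rescaling or normalisation could change this order, not the floors, the offset or the filter. The undigested day 7 array was also lowest for 166 of all 632 (26.3%) as scaled here, or 36.7% without rescaling. At least 2-fold higher in the digested sample at day 7 were 2 of the 8 member probe sets, those of Sod2 and M25157mRNA_i_at of Sod1, against 6.96% of all. The same pair changed most from day 1 to day 7 in its digestion difference, by a log2 of 1.21 for Sod2 and 1.02 for M25157mRNA_i_at. A change upward of at least 1 was seen in 2 of 8 members and 6.96% of all. At least 2-fold lower at day 7 in the undigested samples was 1 of the 8, M25157mRNA_i_at, against 6.01% of all. The undigested day 7 array also had a beta-actin 3′ to 5′ signal ratio of 2.66, a measure of how complete the labelled RNA was, where the other arrays had 1.35 to 1.48. The same ratio was 1.18 for GAPDH (1.01 to 1.10 on the others) and 1.40 for hexokinase (1.05 to 1.31 on the others). The digested day 7 array had low hybridisation controls, with a median log2 of -1.35 over 9 probe sets against the mean of the other arrays. Whether either bears on the Sod1 and Sod2 differences was not tested. At day 1, 0 of the 8 members differed 2-fold between digested and undigested samples, against 3.48% of all.

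**Figure D4:**
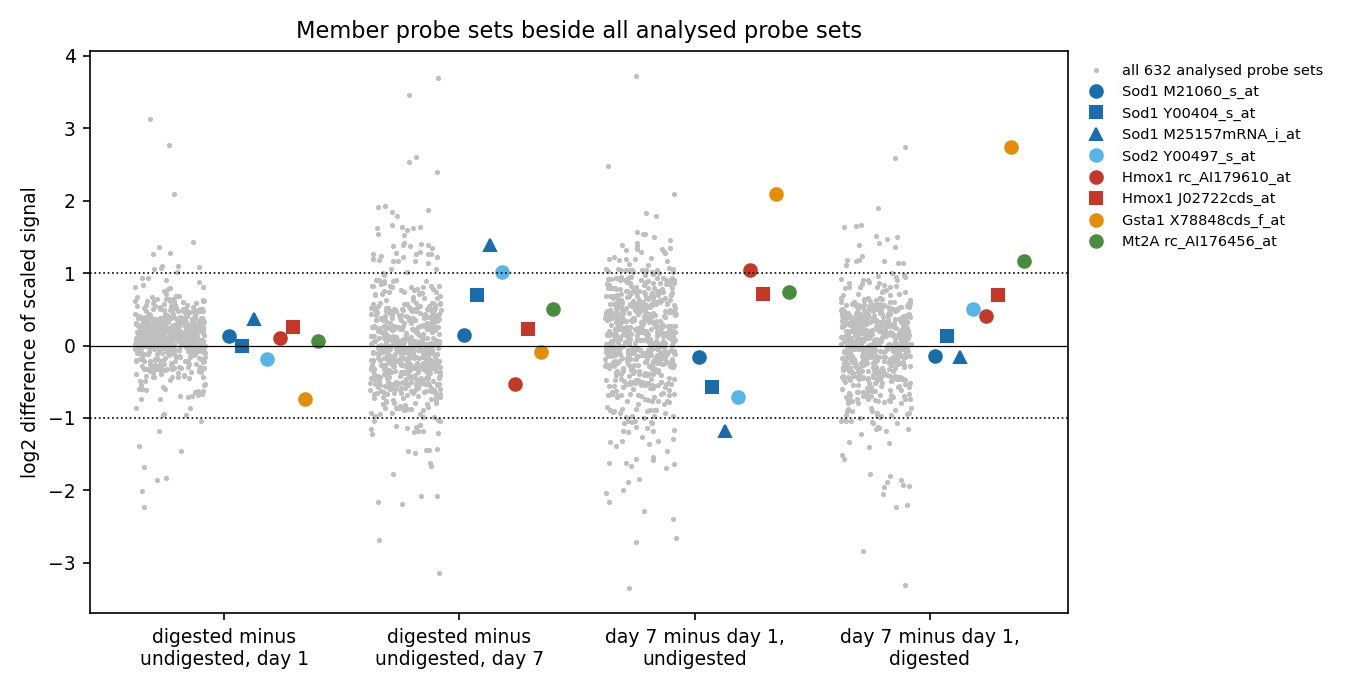
Log2 difference of scaled signal (vertical axis) in the 4 comparisons, for all 632 analysed probe sets (grey, spread sideways for visibility) and the 8 analysed member probe sets (coloured, 1 symbol per probe set); dotted lines mark 2-fold. No member passes 2-fold at day 1, Sod2 and 1 probe set of Sod1 pass it at day 7 at 1.02 and 1.38, and Gsta1 passes it between the days in both states.

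Genes around these enzymes were taken from lists. Of 57 further antioxidant, glutathione and metallothionein genes, 4 were on the array (Gsta2, Mt1, Mt3 and Sod3) and only Mt1 was analysed, with 0 of its differences past 2-fold. The extracellular superoxide dismutase Sod3 was read by a pair of dim probe sets, with signals of 26.4 to 81.9. Of 11 iron handling genes, which bear on Hmox1 because heme breakdown frees iron, 3 were analysed by 4 probe sets. Tfrc, the transferrin receptor that brings iron into cells, had signals of 5245 and 5765 at day 1 and 3069 and 3123 at day 7, undigested before digested, lower at day 7 by log2 differences of -0.77 and -0.88. Tf, the iron carrier transferrin, was higher at day 7 by 0.57 and 0.53 by its brightest probe set. Aco1, a regulator of iron-responsive messenger RNAs, had day differences of 0.02 and -0.50. A second Tf probe set, at 1.17 in the digested samples, was the only 1 of these 4 past 2-fold in any comparison. In limma's fit the day terms of Tfrc (adjusted p = 0.317) and Tf (adjusted p = 0.442) did not pass.

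Enzymes that make oxidants, nitric oxide or prostanoids were mostly dim. Of 15 listed genes 7 were on the array with 16 probe sets, of which 5 were analysed, for Maoa, Nos2 and Ptgs1. Maoa, the monoamine oxidase that forms hydrogen peroxide from catecholamines, had signals of 12877 and 13914 at day 1 and 10528 and 10233 at day 7 by its brightest probe set. The day differences were log2 -0.29 and -0.44. Ptgs1, a prostaglandin synthase, had day differences of 0.48 and 0.70, higher at day 7. The analysed Nos2 probe set, for the inducible nitric oxide synthase, had signals of 308 and 656 at day 1 and 537 and 193 at day 7, undigested before digested. It had digestion differences of opposite sign at the days, 1.09 and -1.48, and made all 3 passes of 2-fold in this list over the 4 comparisons, with the third at -1.77 between the days in the digested samples. Dim Nos2 probe sets disagreed with it, U03699complete_seq_at reading -0.54 and 1.03 for digestion at day 1 and day 7 and D83661_s_at reading -0.46 and -0.85.

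Transcription factors linked to these genes were better covered, with 8 of 25 genes on the array and 12 of 13 probe sets analysed. At day 7, 3 of the 12 probe sets were at least 2-fold higher in the digested sample and 0 lower, beside 6.96% of all 632 higher. These were the probe set of Jund (log2 1.79) and 1 each of Fos (1.23) and Cebpb (1.19). That of Jund rested on a dim undigested day 7 signal of 104 and ran from 1.15 to 1.93 over the settings tried. The brightest probe sets of Fos and Cebpb read -0.15 and -0.10 in that comparison. In the undigested samples 3 were at least 2-fold lower at day 7 and 0 higher, beside 6.01% lower. Jund, a member of the AP-1 family, had signals of 372 and 418 at day 1, then 104 undigested and 359 digested at day 7. Jun had 2410.3 and 2534 at day 1 and 971 and 1599.6 at day 7. Like the Sod probe sets, both were lowest on the undigested day 7 array, which was not tested as a link. The Fos probe sets disagreed, the brightest having signals of 589, 849, 822 and 742 and another 619, 707, 298 and 697, in the array order used above. Nfkb1, a subunit of NF-kB, was highest there, with 2263, 2386, 3319 and 2327. The median over the 8 genes was a log2 of 0.37 for the digestion difference at day 7 and -0.21 for the day difference in the undigested samples, beside -0.05 and 0.17 over all 632. The listed regulator genes Nfe2l2, Keap1 and Mtf1 were not among the named genes of the array.

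The genes with the pattern most like each member were found, out of 385 with a name and an analysed probe set (the brightest of each gene), by the root mean square distance between log2 values over the 4 arrays after each probe set's mean was taken off. With so few arrays a close pattern is easily found, and it is given as a description. Nearest to Sod1 were Cacna1a, Gmfb and Gcm1, at distances of 0.028, 0.038 and 0.042. Nearest to Sod2 were Dedd, Calm3 and Kcnma1, at 0.082, 0.091 and 0.105. Nearest to Hmox1 were Clcn3, Egr1 and Ddc, at 0.043, 0.044 and 0.061, and nearest to Mt2A were Rab3a, Nrxn2 and Npy1r, at 0.047, 0.057 and 0.062. Gsta1 had no close match among these, its nearest being Nnat at 0.590, Or1f32 at 0.594 and Hrk at 0.596. The distance is not scaled to the size of the differences, so a probe set with large ones stands far from most others. Gsta2, outside the analysed set, was not among the genes compared. Among the members themselves, Y00404_s_at of Sod1 and Sod2 were the closest pair of different genes, at 0.142, followed by J02722cds_at of Hmox1 and Mt2A at 0.171. The first pair was closer than the 2 probe sets of Hmox1, which stood 0.275 apart, and X78848cds_f_at of Gsta1 stood at least 0.811 from every probe set of another gene.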

How the data were processed

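The authors deposited 1 table of linear signal intensity for 1322 probe sets on 4 arrays, of which 59 were controls. No source used here says how the signals were computed. Their means after trimming were nearly equal (2515 to 2516), so the deposited intensity values appear to be scaled to a common mean. Genes came from the probe table, and all 5 member symbols were unchanged in RefSeq. Each array was multiplied by 0.925, 1.01, 1.09 or 0.984 (undigested and digested day 1, then day 7) to a common median over 1263 probe sets, floored at the 20th percentile (51.8) and log2-transformed. The analysis kept the 632 whose mean reached the median (229). A difference counted from 2-fold. The additive fit used limma 3.58.1 in R 4.3.3 with 1 residual degree of freedom and Benjamini-Hochberg adjustment over all analysed probe sets. Python 3.11.15 was used otherwise. The scaling, floor, filter and fold differences were tested on simulated data, and the other steps were not. Precision is limited by 1 array per group. The members, lists and settings were chosen with earlier results of these data known. Named genes were the members, up to 4 genes of each list by their largest difference, and the 3 nearest patterns of each member. Cebpb was named as well, because its probe sets disagreed. Alternatives were no rescaling, quantile normalisation, cyclic loess, an offset or a 40th percentile floor, no filter, and 1.5-fold and 3-fold thresholds. No genome build is stated for the arrays, so no positions of probe sets or genes are given; those of the promoter windows are RefSeq's, on GRCr8.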

Additional observations from a re-analysis of the deposited data

Results flagged for a closer look

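Of the 8 analysed member probe sets, 3 had digestion differences of opposite sign at day 1 and day 7, each from 1 array against 1 array, so that the change was not tested. For Sod2 the log2 difference went from -0.19 to 1.02, a change of 1.21, and the day difference was likewise of opposite sign in the undigested (-0.71) and digested samples (0.50). For Y00404_s_at of Sod1 the change was 0.71, from day 1 signals that were nearly equal (15897 undigested and 15847 digested), so the sign at day 1 carries no weight, and the day differences were -0.57 and 0.13. For rc_AI179610_at of Hmox1 the difference went from 0.10 to -0.53, a change of -0.63, while the other Hmox1 probe set changed by -0.02. Without rescaling, with quantile normalisation and with cyclic loess, rc_AI179610_at stood at -0.03, -0.12 and -0.02 at day 1, the same sign as at day 7. The change was then -0.36, -0.10 and -0.34. Under each of these Mt2A had opposite signs. X78848cds_f_at of Gsta1 had them without rescaling and with quantile normalisation. For comparison, the pooled SD of this change between probe sets of a gene was 0.60 over 125 genes.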

How the results depend on the processing

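The count of member probe sets past 2-fold between digested and undigested samples at day 1 was 0 and became 1 without the filter, through S72505_f_at of Gsta1, and 1 at 1.5-fold. At day 7 the count of 2 became 1 with cyclic loess and 1 with an offset, where Sod2 stood at 0.98 and 1.00. It became 3 at 1.5-fold and 0 at 3-fold. Between the days, the count of 3 in the undigested samples became 2 without rescaling, 2 with quantile normalisation and 2 with cyclic loess. It became 6 at 1.5-fold and 1 at 3-fold. The count of 2 in the digested samples became 3 without the filter, 3 at 1.5-fold and 1 at 3-fold. Past 2-fold either way between the days were 13.3% of all 632 in the undigested and 8.07% in the digested samples. The share of all probe sets was not counted at the other thresholds or settings, so these member counts have nothing to be compared with. The 1 member with an adjusted p under 0.05 in limma's additive fit, Gsta1, became 0 without rescaling, 0 with quantile normalisation and 0 without the filter. Of 36 member differences, 4 took both signs over the settings, and 0 of the 21 of at least 0.5 in size did. Of 282 recomputed member values, 270 moved by less than the pooled SD between probe sets of a gene and 12 by more, of which 11 were of Gsta1. Leaving out the filter could not move a value, and the other floor and the offset hardly move bright signals. The 270 therefore overstate how stable the values are. Dim signals limit Gsta1 most, and none of the signals was shown to be above background.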
